A study of Mus musculus with 6 samples.

Results

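Progress through the cell cycle was followed with 56 genes, of the 49671 genes counted in each library, in cancer-associated fibroblasts (CAFs) sorted from mouse pancreatic tumours. The genes were taken by name from a fixed list and placed by textbook role into 4 groups: 9 G1 cyclins, kinases and a kinase inhibitor, 4 cell cycle transcription factors, 16 genes of DNA replication and S phase, and 27 genes of mitosis. The rule uses gene names and no measured value. All 56 were measured and all 56 had enough reads to be tested.

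The tumours grew from FC1199 cells, a murine pancreatic cancer line, placed in the pancreas of C57BL/6J hosts that carried the Rosa-mTmG reporter and Fabp4-Cre. Hosts were 8 weeks old at injection, tumours grew for 4 weeks, and the recorded age was 12 weeks. In such hosts a cell makes red membrane Tomato until Cre recombinase acts in it, after which it and its descendants make green GFP instead. Podoplanin-positive cells of the digested tumours were separated into a GFP fraction, which the study calls stellate cell-derived, and a Tomato fraction, which it calls not stellate cell-derived, with 3 RNA sequencing libraries each, made from 150 ng of total RNA. Both fractions therefore share the host genotype, the injected tumour line and the Podoplanin gate, and differ in whether the Fabp4 promoter had driven Cre in the cell or an ancestor. The labels do not say whether each numbered library came from its own mouse, so the p-values measure the spread between these libraries, which may in part be technical.

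D-type cyclins bind Cdk4 and Cdk6 in G1, and the active kinases release E2F transcription factors from proteins of the retinoblastoma family. E2F factors switch on genes for origin licensing, nucleotide supply and the replication fork, and the genes of mitosis, which the DREAM complex represses in resting cells and G1, are later switched on by the MuvB core with B-Myb and Foxm1. Mitosis promoters are known for elements called CHR and for CCAAT boxes. Fibroblasts in adult tissue rarely divide, and transcripts of S phase and mitosis in a bulk library come from the cells that are cycling.

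The libraries held 33378377 to 42154933 counts. Fibroblast transcripts were abundant in both fractions. The sum of 11 markers was 129836 to 144520 CPM (counts scaled to a common library total) in GFP and 63566 to 96598 in Tomato libraries. Most of it came from the collagens Col1a1, Col1a2 and Col3a1, with means of 33972.5, 20532.7 and 67576 CPM in GFP. Their Tomato means were 13788.4, 10689.1 and 41741.7 CPM. Of the 11 markers 6 were higher in GFP: these collagens, Pdgfra, Pdgfrb and Thy1. Dcn, Lum, Fap, Vim and Pdpn did not pass. Macrophage markers were low in GFP, at 151 to 241 CPM in sum, and reached 1081, 1808 and 2706 in Tomato replicates 1, 2 and 3. All 14 of these markers were lower in GFP. Mesothelial markers summed to 166 to 191 CPM in GFP and 1338 to 1727 in Tomato libraries. Of these 10 markers 9 were lower in GFP, and Wt1 did not pass, with means of 103 CPM in GFP and 106 in Tomato. Epithelial or cancer cell markers summed to 54.4 to 65.0 CPM in GFP and 399 to 477 in Tomato libraries. The largest Tomato means among them were those of the keratins Krt7, Krt8 and Krt18, at 82.1, 171 and 133 CPM. Of 9 tested 6 were lower, Epcam at 4.94 against 12.3 CPM, and Cldn4, Cldn7 and Elf3 did not pass. Endothelial markers summed higher in GFP, at 135 to 208 against 65.1 to 91.2 CPM. Of these 8 markers 6 were higher in GFP, and Kdr (-0.39) and Tek (0.80) did not pass. Lymphatic endothelial markers also summed higher in GFP. Without Pdpn, the gene of the sorting gate, which did not pass (-0.10), these summed to 309 to 493 CPM in GFP and 22.2 to 77.6 in Tomato libraries. Prox1, Flt4, Lyve1, Mmrn1 and Reln were higher in GFP, by 2.81 to 3.33 on the log2 scale, and Ccl21a had 0 counts in every library. The part of these other cell types in the cell cycle results was not tested.

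The promoters of the genes show the elements through which this programme is known to be read, and a few are printed for that reason. The RefSeq promoter table for GRCm38.p6, which gives 250 bases before to 50 after each gene's start, held 46 of the 56 genes. Words searched on both strands were TTTGAA and TTTAAA for CHR, CCAAT for the CCAAT box, and TTTCCCGC, TTTCGCGC, TTTGCCGC and TTTGGCGC for E2F, and E2F words can overlap each other. A gene with several listed starts was counted once, if any of its promoters held the word. CHR words lay in promoters of 21 of 23 mitosis genes, 5 of 14 replication genes and 30.6% of all 27025 genes in the table. E2F words lay in those of 7 of 14 replication genes, 1 of 23 mitosis genes and 2.60% of all genes. CCAAT boxes lay in those of 20 of 23 mitosis genes, 10 of 14 replication genes and 41.1% of all genes. Each stretch below is the 120 bases before the start, 5′ to 3′ on the gene's strand, and overlaps no annotated exon. Capitals mark the words found, on either strand. Mcm6 is an example of the replication genes that were lower in GFP, and Ccnb2 of the lower mitosis genes. Top2a, Kif11 and Mki67 are mitosis genes that did not pass the test. Of the 9 replication genes lower in GFP that the table held, only 4 had E2F words in a promoter.
Mcm6, chr1:128359706-128359825, minus strand: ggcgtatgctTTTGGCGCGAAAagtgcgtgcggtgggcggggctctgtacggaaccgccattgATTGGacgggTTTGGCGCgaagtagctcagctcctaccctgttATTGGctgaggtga
Ccnb2, chr9:70421555-70421674, minus strand: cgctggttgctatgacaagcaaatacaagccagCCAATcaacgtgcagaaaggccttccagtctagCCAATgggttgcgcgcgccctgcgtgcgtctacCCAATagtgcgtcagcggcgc
Top2a, chr11:99024190-99024309, minus strand: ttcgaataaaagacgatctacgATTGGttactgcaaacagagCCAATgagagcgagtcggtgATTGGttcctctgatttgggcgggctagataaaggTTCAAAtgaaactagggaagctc
Kif11, chr19:37376262-37376381, plus strand: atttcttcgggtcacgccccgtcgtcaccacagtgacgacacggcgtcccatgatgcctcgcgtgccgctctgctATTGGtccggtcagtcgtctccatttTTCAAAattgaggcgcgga
Mki67, chr7:135716380-135716499, minus strand: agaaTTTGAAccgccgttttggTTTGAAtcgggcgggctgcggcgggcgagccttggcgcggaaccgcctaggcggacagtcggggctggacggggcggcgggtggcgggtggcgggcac
In Mcm6 the capitals are E2F words starting at -110 and -47, a reversed E2F word at -106, and reversed CCAAT boxes at -57 and -14. Ccnb2 shows 3 CCAAT boxes, at -87, -54 and -21, while its CHR words lie outside this stretch, at -167 and at 4. Top2a shows a CCAAT box at -78, reversed CCAAT boxes at -98 and -58 and a reversed CHR word at -23. Kif11 shows a reversed CCAAT box at -45 and a reversed CHR word at -19. Mki67 carries CHR words at -116 and -98. Its CCAAT boxes lie outside this stretch, at -188 and -141, with a reversed CCAAT box at -166. Among mitosis genes in the promoter table, 9 of 10 lower in GFP and 12 of 13 that did not pass had CHR words. CCAAT boxes were held by 7 of 10 and 13 of 13, and both together by 7 of 10 and 12 of 13. A match of letters is a description of the sequence and shows no binding.

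In the GFP fraction 10 of 16 replication genes and 11 of 27 mitosis genes were lower, and the transcription factors did not pass the test. Of the 56 genes, 22 were lower and 1 was higher in GFP at an adjusted p under 0.05 (edgeR quasi-likelihood test, Benjamini-Hochberg over 15608 genes), and 33 did not pass. Among all genes tested, 15.7% were lower and 13.1% higher, against 39.3% and 1.79% of the cell cycle genes. The median log2 fold change of GFP over Tomato was -0.34 for the 56 genes and 0.00 for all genes tested. In 49 of the 56 the fold change was below 0. All 3 GFP libraries lay below all 3 Tomato libraries in 30 of the genes, which compares with 25.2% of all genes. They lay above in 1 gene, Ccnd2, against 23.4% of all genes. In a bulk sample fewer cycling cells and less RNA of these genes per cell cannot be told apart.

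**Figure D1:**
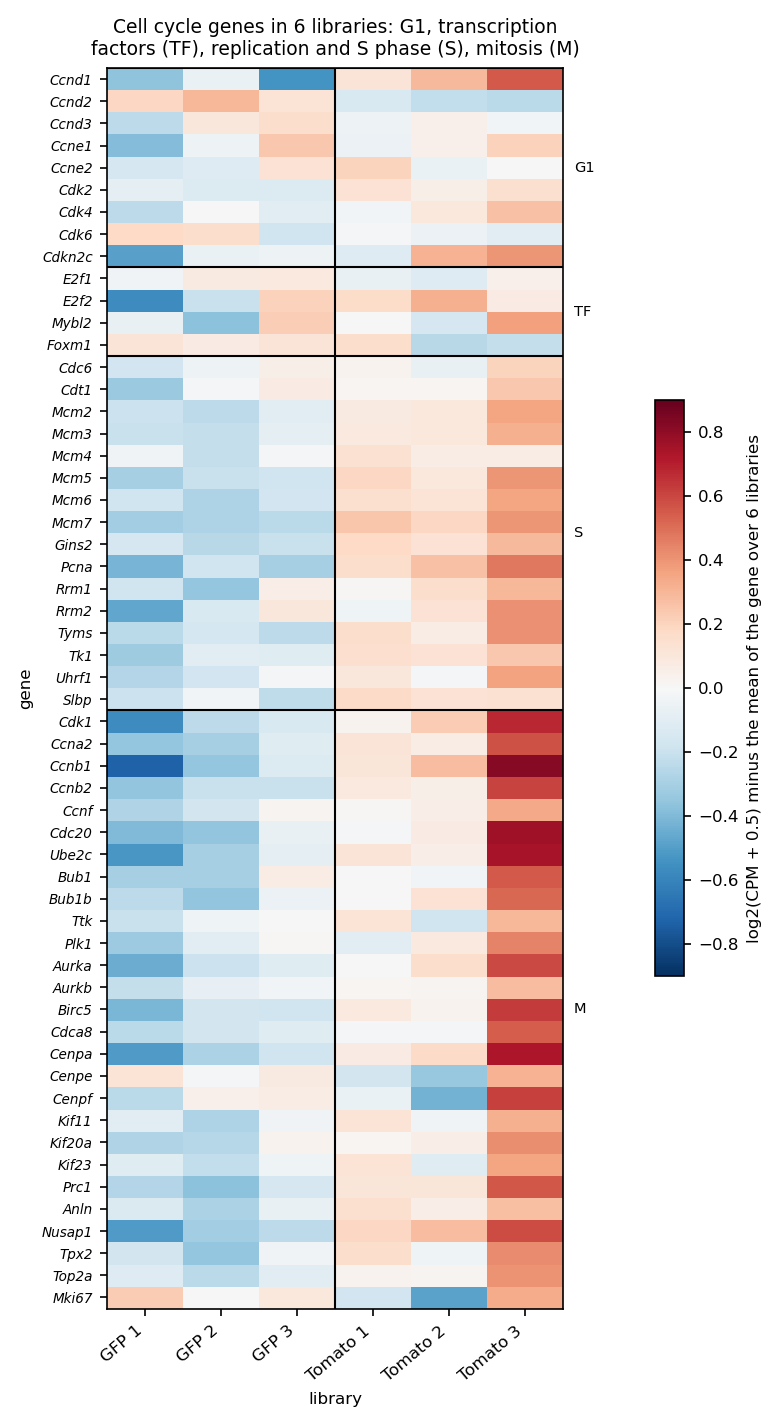
Colour gives log2(CPM + 0.5) of each gene (vertical axis) in each of the 6 libraries (horizontal axis) minus the mean of that gene over the libraries, red above and blue below the mean. Most replication and mitosis genes are blue in the 3 GFP columns and red in Tomato replicate 3, the highest library for 27 of 27 mitosis genes.

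By phase, none of the replication or mitosis genes was higher in GFP, and their median log2 fold changes were -0.35 and -0.38. For the G1 genes the median was -0.11, with 1 lower and 1 higher of 9, or 11.1% each and near the shares of all genes, and for the 4 transcription factors it was -0.03 with none past the threshold. Summed over its genes, replication reached 724, 737 and 793 CPM in GFP replicates 1 to 3 and 919, 927 and 1058 in Tomato replicates 1 to 3. Mitosis summed to 616, 634 and 711 CPM in GFP and to 785, 781 and 1095 in Tomato libraries. For both phases the groups did not overlap, and Tomato replicate 3 stood above the other libraries. The G1 genes summed to 533 to 609 CPM in GFP and 563 to 613 in Tomato libraries, and the transcription factors to 52.0 to 56.7 and 47.2 to 53.4, so those groups overlapped.

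**Figure D2:**
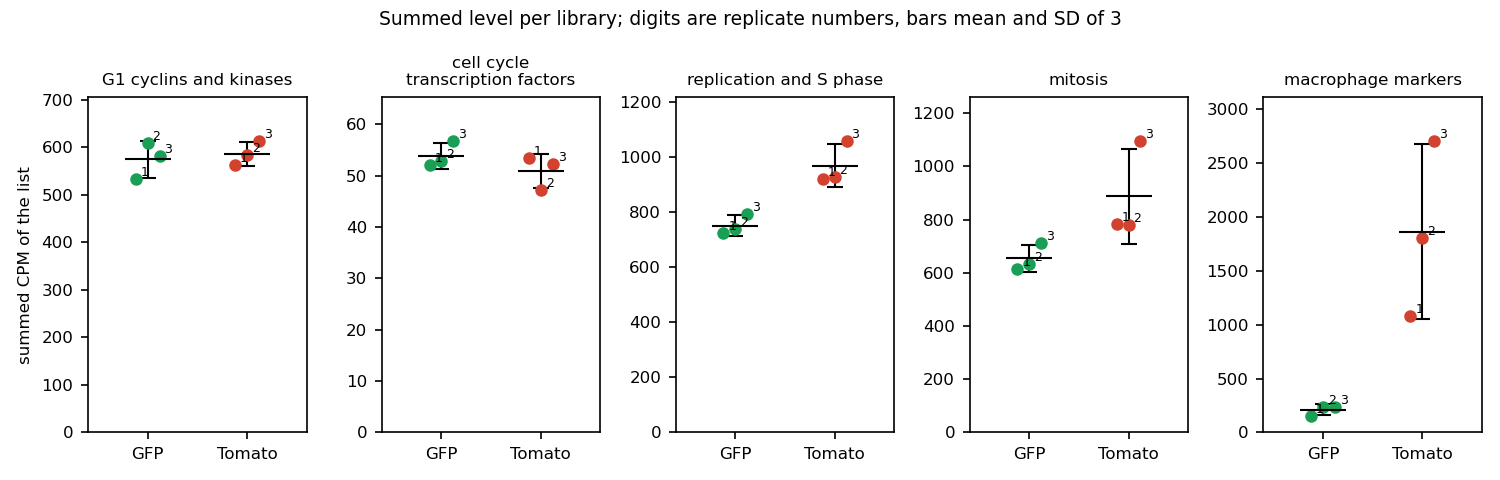
Summed CPM (vertical axes, each from 0) of the 4 groups of cell cycle genes and of 14 macrophage markers, with a point per library labelled by its replicate number and bars for the mean and SD of 3 libraries. Replication and mitosis sums do not overlap between GFP and Tomato, and Tomato replicate 3 is the highest of all libraries for both and for the macrophage markers.

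Tomato replicate 3 stood apart in these genes. It was the highest of the 6 libraries for 27 of 27 mitosis genes and 14 of 16 replication genes, compared with 30.7% of all genes tested and 72.8% of all genes lower in GFP. Its mitosis sum was 1.03 times its replication sum, while this ratio was 0.854 and 0.843 in the other Tomato libraries and 0.851, 0.861 and 0.897 in GFP. It also had the highest macrophage marker sum and the lowest fibroblast marker sum, 63566 CPM and mostly collagen transcripts. Their part in the result was not tested. Without this library 14 genes were lower, 25.0% of the 56 against 12.3% of all genes, and the medians were -0.29 for replication and -0.25 for mitosis.

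The number of genes past the threshold rested on single libraries of both fractions. Lower genes numbered 5 without GFP replicate 1, which is 8.93% of the genes and close to the 8.61% of all genes in that fit. These 5 were 4 replication genes and 1 mitosis gene. They numbered 9 without GFP replicate 2 and 10 without GFP replicate 3, at 16.1% and 17.9% against 10.7% and 9.66% of all genes. Without Tomato replicates 1 and 2 the numbers were 27 and 13, at 48.2% and 23.2% against 17.4% and 9.56%. Libraries numbered 1 and those numbered 3 varied together across the fractions, and those numbered 2 only weakly. The labels do not state such a pairing, and it was taken from these same data. A fit that blocks on the replicate number, called the replicate block here, put 36 genes lower, 64.3% against 20.9% of all genes. These 36 held all 22 and divided into 3 G1, 13 replication and 20 mitosis genes. Scaling by library size alone shifted the median of all genes to -0.16 and gave 35 lower cell cycle genes, 62.5% against 24.7% of all genes, with 1128 genes higher and 3851 lower in all where the scaling used here gave 2049 and 2456. At an adjusted p under 0.01, 3 of the 56 genes were lower, 5.36%, against 6.94% of all genes. Of the 22 genes, 18 lost their call without at least 1 library. Mcm6, Mcm7, Nusap1 and Pcna were lower in every one of 19 alternatives judged at 0.05.

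**Figure D3:**
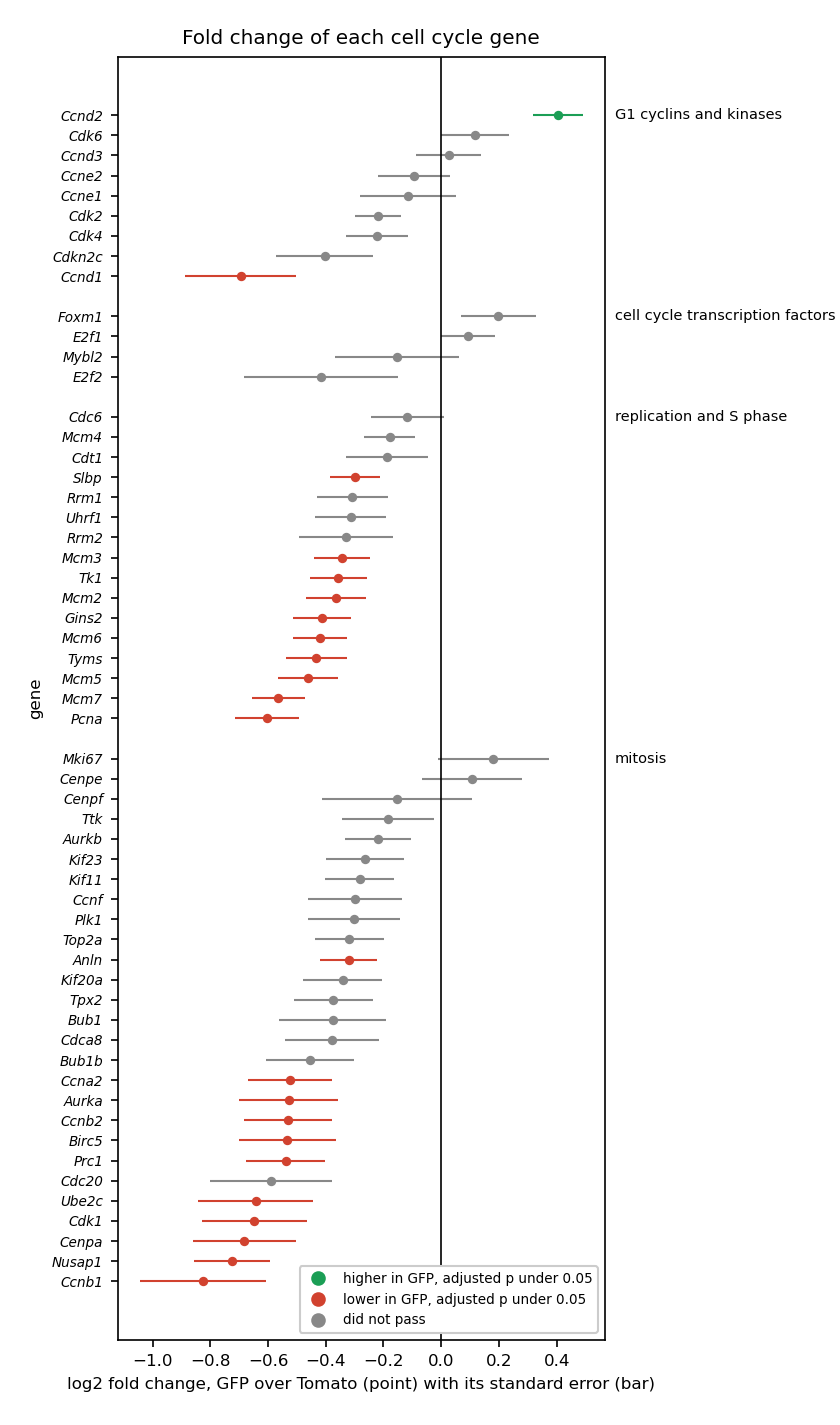
Log2 fold change of GFP over Tomato (horizontal axis, point) with its standard error (bar) for each of the 56 genes (vertical axis), ordered within each group, with red for lower, green for higher and grey for genes that did not pass. Every replication gene lies left of 0, and Mki67 and Cenpe are the mitosis genes right of 0.

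In G1, the D-type cyclins did not move together. Ccnd2 (ENSMUSG00000000184, chr6:127125162-127152193, GRCm38), the D cyclin with most reads here, stood at 145.6, 157.6 and 139.3 CPM in GFP and 116.4, 109.9 and 108.2 CPM in Tomato libraries. All GFP libraries lay above all Tomato libraries, with a log2 fold change of 0.40 ± 0.09 (SE) and an adjusted p of 0.0110. Its call was lost with library size scaling (0.24, adjusted p = 0.0695), with offsets for length and GC content (0.19, adjusted p = 0.161), with these offsets and the replicate block (0.19, adjusted p = 0.115) and without Tomato replicate 2 (adjusted p = 0.0554). Ccnd1 (chr7:144929931-144939925), often the main D cyclin of growth factor-stimulated fibroblasts, was scarce, at 4.12, 5.19 and 3.58 CPM in GFP and 5.93, 6.74 and 8.20 in Tomato libraries. It fell by 0.69 ± 0.19 (SE) on the log2 scale (adjusted p = 0.0290). In counting, 28.7% of the reads over its exons had been set aside, which may come from it or from a neighbour on the other strand. Ccnd1 did not pass without GFP replicate 1 or 3 or Tomato replicate 2 or 3, where the adjusted p reached 0.0932. Ccnd3 gave 90.5, 114 and 119 CPM in GFP and 103, 110 and 104 in Tomato libraries, a log2 fold change of 0.03 ± 0.11 (adjusted p = 0.878).

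Compared per length, Ccnd2 made up 58.1%, 54.3% and 50.9% of the RPKM, a level scaled by exon length as well as depth, of the 3 D cyclins in GFP replicates 1 to 3 and 48.8%, 45.5% and 45.7% in Tomato replicates 1 to 3. Ccnd1 made up 2.61% to 3.57% in GFP and 4.96% to 6.93% in Tomato libraries. The Ccnd3 share, 38.7% to 46.5% and 46.3% to 48.9%, overlapped. Counting had set aside 4.20% of the reads over the exons of Ccnd2, 17.9% for Ccnd3 and 28.7% for Ccnd1. Those reads may come from the gene or from a neighbour on the other strand. These shares may therefore understate Ccnd1 and Ccnd3, and they give no firm order of Ccnd2 and Ccnd3.

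The partner kinases of the D cyclins did not pass the test. Cdk4 had the highest level per length of the 56 genes, 58.9 RPKM in GFP and 68.8 in Tomato. It gave 175, 206 and 193 CPM in GFP and 203, 220 and 247 in Tomato libraries, which overlap (-0.22 ± 0.11, adjusted p = 0.147). With library size scaling Cdk4 was lower (-0.39, adjusted p = 0.0421). Of the reads over its exons, 36.1% had been set aside. Cdk6 gave 27.3, 27.0 and 21.2 CPM in GFP and 24.0, 23.2 and 22.5 in Tomato libraries (0.12 ± 0.12, adjusted p = 0.477). Tomato libraries of Cdk6 lay within the range of GFP libraries. Cdk2, the kinase of E cyclins and of cyclin A, gave 43.9, 42.6 and 42.5 CPM in GFP and 50.7, 48.1 and 51.3 in Tomato libraries. Its groups did not overlap, but the difference did not pass (-0.22 ± 0.08, adjusted p = 0.0720). Cdk2 was lower with the replicate block (adjusted p = 0.0493), library size scaling (0.0132) and the length and GC offsets (0.0204).

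The E cyclins, which act with Cdk2 at the G1/S boundary, did not pass. Ccne1 gave 12.0, 15.4 and 18.9 CPM in GFP and 15.3, 16.4 and 18.4 in Tomato libraries (-0.11 ± 0.17, adjusted p = 0.627). Ccne2 gave 14.6, 15.0 and 17.9 CPM in GFP and 18.8, 15.6 and 16.3 in Tomato libraries (-0.09 ± 0.12, adjusted p = 0.587). Cdkn2c, the INK4 inhibitor p18 and itself an E2F target, gave 19.6, 26.5 and 26.7 CPM in GFP and 25.4, 34.4 and 36.5 in Tomato libraries. It did not pass (-0.40 ± 0.17, adjusted p = 0.103), but was lower with the replicate block (adjusted p = 0.00527) and with library size scaling (0.0473).

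**Figure D4:**
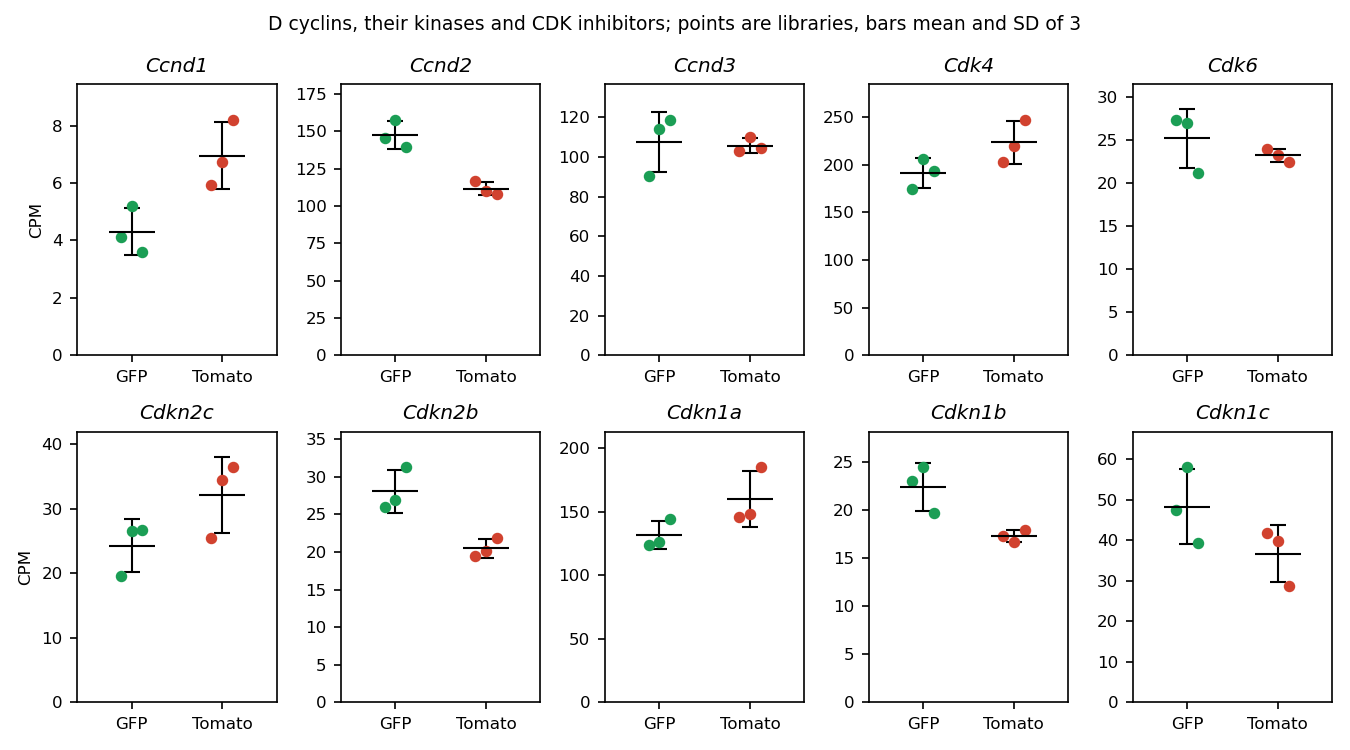
CPM (vertical axes, each from 0) of the D cyclins, Cdk4, Cdk6 and 5 CDK inhibitors, with a point per library in replicate order and bars for the mean and SD of 3 libraries. Ccnd2, Cdkn2b and Cdkn1b lie higher in all GFP than in all Tomato libraries, Ccnd1 and Cdkn1a lie lower, and the other 5 genes overlap.

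The transcription factors that read out G1 and drive mitotic genes did not pass the test under any of the alternatives tried. E2f1, an activator of replication genes, gave 25.7, 27.8 and 27.9 CPM in GFP and 25.1, 24.2 and 27.2 in Tomato libraries (0.09 ± 0.09, adjusted p = 0.481). E2f2, a related activator, was near the lower end of detection, at 1.37, 1.91 and 2.71 CPM in GFP and 2.61, 2.96 and 2.42 in Tomato libraries (-0.42 ± 0.27, adjusted p = 0.260), and had the lowest level per length of the 56 genes, 0.409 and 0.545 RPKM. Foxm1 gave 19.8, 19.1 and 19.8 CPM in GFP and 20.3, 15.2 and 15.6 in Tomato libraries (0.20 ± 0.13, adjusted p = 0.274). Mybl2, which encodes B-Myb, gave 5.09, 4.03 and 6.31 CPM in GFP and 5.37, 4.76 and 7.06 in Tomato libraries (-0.15 ± 0.22, adjusted p = 0.613). In all 4 genes the GFP and Tomato libraries overlapped.

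Among replication genes, Mcm7, Pcna, Mcm6 and Mcm5 had the smallest adjusted p. Pcna (chr2:132249162-132253314), the sliding clamp that holds DNA polymerases on the template, gave 44.6, 52.6 and 48.5 CPM in GFP and 66.6, 71.8 and 83.1 in Tomato libraries. It fell by 0.60 ± 0.11 on the log2 scale (adjusted p = 0.00586). Mcm7 (chr5:138164583-138172422), a subunit of the MCM2-7 helicase, gave 31.2, 32.0 and 32.8 CPM in GFP and 46.2, 44.3 and 51.4 in Tomato libraries. It fell by 0.56 ± 0.09 (adjusted p = 0.00341), the smallest adjusted p of the 56 genes. Mcm6 (chr1:128331590-128359664) gave 105, 98.0 and 106 CPM in GFP and 131, 130 and 152 in Tomato libraries, and fell by 0.42 ± 0.09 (adjusted p = 0.0129). Mcm5 (chr8:75109569-75128439) gave 33.8, 36.2 and 36.7 CPM in GFP and 47.5, 44.5 and 55.0 in Tomato libraries, and fell by 0.46 ± 0.10 (adjusted p = 0.0131), but not past the threshold without GFP replicate 1 (adjusted p = 0.0528). In these 4 genes each GFP library lay below each Tomato library.

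The other helicase subunits followed with smaller folds. Mcm2 and Mcm3 fell by 0.37 and 0.34 on the log2 scale, while Mcm4 had a log2 fold change of -0.18 and did not pass (adjusted p = 0.154), although its groups did not overlap. Gins2, part of the GINS complex that joins the helicase at firing, fell by 0.41, with 28.1% of the reads over its exons set aside. The licensing factors Cdc6 and Cdt1, which load the helicase on origins, did not pass, at -0.12 (adjusted p = 0.502) and -0.19 (adjusted p = 0.343), and their libraries overlapped. With the length and GC offsets, and with the replicate block, 5 of the 6 helicase genes were lower in GFP, all except Mcm4. Mcm4 was lower with library size scaling (adjusted p = 0.0238).

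Nucleotide supply gave a mixed picture. Tyms, thymidylate synthase, and Tk1, thymidine kinase, fell by 0.43 and 0.36 on the log2 scale. The ribonucleotide reductase genes were variable among GFP libraries. Rrm1 gave 118, 105 and 139 CPM in GFP and 135, 150 and 165 in Tomato libraries, and Rrm2 gave 43.9, 55.3 and 65.3 CPM in GFP and 59.2, 66.6 and 81.1 in Tomato libraries. Both overlapped and did not pass (adjusted p = 0.0916 and 0.158), and both were lower with the replicate block (adjusted p = 0.0222 and 0.00930). Rrm1 was also lower with the length and GC offsets (adjusted p = 0.0333) and with library size scaling (0.0321). Slbp, which binds the stem-loop of histone transcripts, fell by 0.30. Uhrf1, which maintains DNA methylation at the fork, had a log2 fold change of -0.31 with no overlap and did not pass (adjusted p = 0.0871) except with the block (0.0221) or library size scaling (0.0304).

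Among mitosis genes, 11 passed as lower. Ccnb1 (chr13:100778650-100786570), the cyclin that activates Cdk1 at mitotic entry, gave 20.3, 26.6 and 31.2 CPM in GFP and 36.8, 41.4 and 60.4 in Tomato libraries. It fell by 0.83 ± 0.22 on the log2 scale (adjusted p = 0.0274). Nusap1 (chr2:119618298-119651244), a spindle microtubule-bundling protein, gave 17.4, 20.0 and 21.02 CPM in GFP and 28.4, 30.3 and 37.6 in Tomato libraries. It fell by 0.72 ± 0.13 (adjusted p = 0.00576), the smallest adjusted p of the mitosis genes. Cenpa (chr5:30666777-30674830), the centromeric histone H3 variant, gave 22.3, 26.1 and 28.2 CPM in GFP and 33.7, 36.1 and 53.2 in Tomato libraries, and fell by 0.68 ± 0.18 (adjusted p = 0.0246). Prc1, which bundles microtubules of the central spindle, gave 37.1, 34.4 and 40.1 CPM in GFP and 48.2, 48.2 and 65.8 in Tomato libraries. It fell by 0.54 ± 0.14 (adjusted p = 0.0210), with 24.4% of the reads over its exons set aside. Cdk1, the mitotic kinase, gave 35.0, 44.3 and 47.3 CPM in GFP and 53.3, 61.1 and 83.9 in Tomato libraries, and fell by 0.65 ± 0.18 (adjusted p = 0.0316). In each of these 5 genes the groups did not overlap and Tomato replicate 3 was the highest library. Without Tomato replicate 3 the 5 genes still passed, with log2 fold changes from -0.60 for Nusap1 and -0.59 for Ccnb1 to -0.46 for Cenpa, -0.45 for Cdk1 and -0.38 for Prc1. Apart from Nusap1 they did not pass without GFP replicate 1 or without GFP replicate 2, Cdk1 also did not pass without Tomato replicate 2, and Ccnb1 did not pass with no filter on low counts.

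Other cyclins and the anaphase machinery were lower in part. Ccna2 and Ccnb2, cyclins A2 and B2, fell by 0.52 and 0.53 on the log2 scale, Ube2c, the ubiquitin-conjugating enzyme of the anaphase-promoting complex, fell by 0.64, and Birc5, which encodes survivin of the chromosomal passenger complex, fell by 0.53. With the length and GC offsets Ccnb2 (-0.24, adjusted p = 0.183), Ube2c (-0.51, adjusted p = 0.0738), Birc5 (-0.44, adjusted p = 0.0796) and Aurka (-0.38, adjusted p = 0.101) did not pass. Of the reads over the exons of Ccna2, 27.0% had been set aside. Aurka, a spindle pole kinase, passed narrowly (-0.53, adjusted p = 0.0491). Of 20 alternatives, Aurka did not pass in 11, Birc5 in 9 and Ube2c in 7. Anln, which encodes anillin of the contractile ring, fell by 0.32. Cdc20, which activates the anaphase-promoting complex, had a log2 fold change of -0.59 without overlap but with a standard error of 0.21, and did not pass (adjusted p = 0.0706). It passed with the replicate block (adjusted p = 0.00367).

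Checkpoint kinases, motors and passenger proteins made up most of the mitosis genes that did not pass. The spindle checkpoint genes Bub1, Bub1b and Ttk had log2 fold changes of -0.38, -0.45 and -0.19, the mitotic kinases Plk1 and Aurkb -0.30 and -0.22, and the passenger protein gene Cdca8 -0.38. The kinesins Kif11, Kif20a and Kif23 had -0.28, -0.34 and -0.26, the spindle assembly factor Tpx2 -0.37, and the F-box cyclin Ccnf -0.30. With the replicate block, Bub1 (adjusted p = 0.0174), Bub1b (0.00749), Plk1 (0.0362), Cdca8 (0.0384), Kif11 (0.0266), Kif20a (0.0108) and Tpx2 (0.00754) were lower in GFP, and Ttk, Aurkb, Kif23 and Ccnf did not pass. Of the reads over the exons of Kif20a, 46.4% had been set aside, and of those over the exons of Plk1, 15.9%. Top2a, the topoisomerase that untangles sister chromatids, gave 54.5, 49.9 and 54.8 CPM in GFP and 60.4, 59.9 and 78.1 in Tomato libraries. Its groups did not overlap, and it did not pass (-0.32 ± 0.12, adjusted p = 0.0753), but was lower with the length and GC offsets (adjusted p = 0.0316) and with the block (0.0254).

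Mki67, the gene of the proliferation marker Ki-67, went apart from the other mitosis genes. It gave 33.9, 28.9 and 31.0 CPM in GFP and 25.6, 20.6 and 36.6 in Tomato libraries (chr7:135689784-135716361). The 3 GFP libraries were above Tomato replicates 1 and 2 and below Tomato replicate 3, with a log2 fold change of 0.18 ± 0.19 (adjusted p = 0.503). Without Tomato replicate 3 it was higher in GFP (0.43, adjusted p = 0.0379). Cenpe, a kinetochore motor, gave 14.4, 13.1 and 14.0 CPM in GFP and 11.8, 10.3 and 16.5 in Tomato libraries (0.11 ± 0.17, adjusted p = 0.660). Cenpf, a kinetochore protein, gave 8.29, 10.3 and 10.4 CPM in GFP and 9.52, 7.26 and 15.5 in Tomato libraries (-0.15 ± 0.26, adjusted p = 0.680). All 3 had their lowest value in Tomato replicate 2 and their highest in Tomato replicate 3.

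Fold change rose with the combined exon length of a gene across all genes tested, when these were ordered by length and cut into 10 equal bins, from a median of -0.29 in the bin of shortest genes to 0.28 in that of the longest. Mki67, with 10061 bases, and Cenpe, with 8620, lay close to the medians of their bins, 0.28 and 0.16, and Cenpf, with 15433 bases, lay below its own. Set against the median of its own bin, the fold change was lower for 27 of 27 mitosis genes, 16 of 16 replication genes, 8 of 9 G1 genes and 2 of 4 transcription factors. The exceptions were Ccnd2, E2f1 and Foxm1. With offsets for length and GC content the log2 fold change of Mki67 became -0.01, and 22 cell cycle genes were lower, 39.3% against 13.8% of all genes. Of these, 18 were among the 22 lower without offsets.

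**Figure D5:**
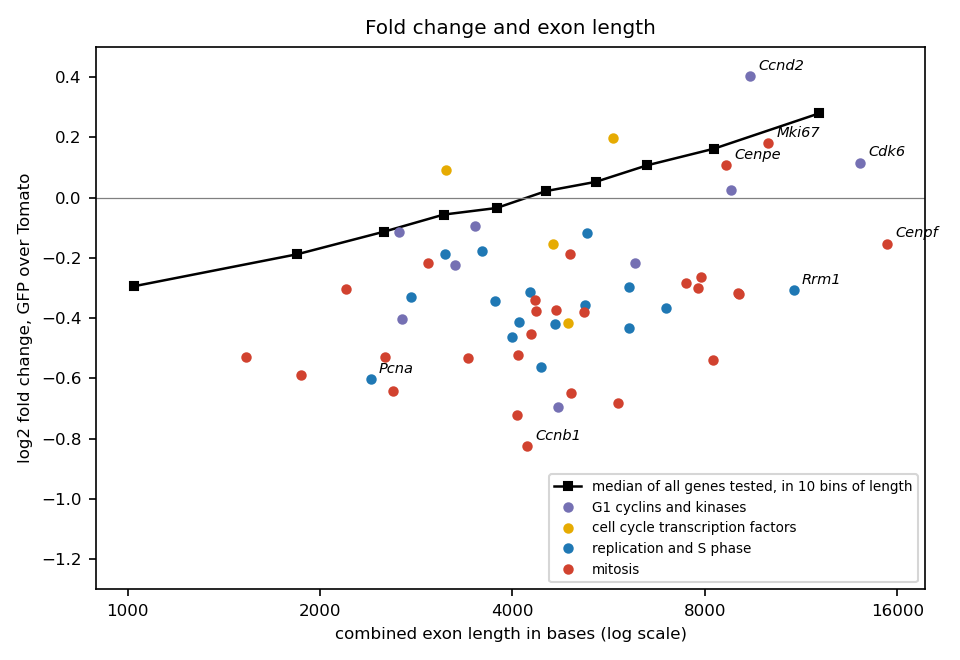
Log2 fold change of GFP over Tomato (vertical axis) against combined exon length in bases (horizontal log axis) for the 56 genes, coloured by group, with black squares for the median of all genes tested in each of 10 length bins. The line of medians climbs from -0.29 to 0.28, and 53 of the 56 genes lie below the median of their bin.

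The wider machinery was followed with 140 other cell cycle genes, all tested, of which 35 were lower and 3 higher in GFP, 25.0% and 2.14% against 15.7% and 13.1% of all genes, with a median log2 fold change of -0.24. Other origin and replication fork genes had 14 of 38 lower and none higher. Among them Chaf1b, a histone chaperone subunit, fell by 0.71 on the log2 scale (adjusted p = 0.00480) and Gmnn, the licensing inhibitor geminin, fell by 0.84 (adjusted p = 0.00616). Other spindle and kinetochore genes had 13 of 44 lower, with Mad2l1, the Mad2 checkpoint protein gene, at -0.64 and Fam83d at -0.51. CDK phosphatases, Wee1 kinases and genes of the anaphase-promoting complex had 4 of 22 lower, 18.2% and close to the share of all genes, with the Cdk subunit genes Cks2 at -0.75 and Cks1b at -0.55. Of 13 condensin and cohesin genes, Smc3, a cohesin subunit, rose by 0.34 (adjusted p = 0.0357) and Ncaph2, a condensin II subunit, fell by 0.30. Of 16 genes of the retinoblastoma family, other E2F factors and the DREAM complex, Tfdp2, an E2F dimer partner, fell by 0.41 and Rbbp4 by 0.33, while Rb1, Rbl1 and Rbl2 did not pass, at 0.03, -0.10 and 0.27. Lower genes among the 140 numbered 9 without GFP replicate 1, which at 6.43% is below the 8.61% of all genes. They numbered 16 and 15 without GFP replicates 2 and 3, 11.4% and 10.7% against 10.7% and 9.66%, which is close to all genes. Without Tomato replicate 1 there were 38 (27.1% against 17.4%), without Tomato replicate 2 there were 15 (10.7% against 9.56%), and without Tomato replicate 3 there were 16 (11.4% against 12.3%). With the replicate block they numbered 61, 43.6% against 20.9%, and at an adjusted p under 0.01 they numbered 5, 3.57% against 6.94%.

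CDK inhibitors held 2 of the 3 genes that were higher. The list had 7 genes, of which 28.6% were higher and 14.3% lower, against 13.1% and 15.7% of all genes. Cdkn2b, the INK4 inhibitor p15 of Cdk4 and Cdk6, gave 26.0, 26.9 and 31.3 CPM in GFP and 19.4, 20.1 and 21.9 in Tomato libraries, and rose by 0.46 ± 0.11 on the log2 scale (adjusted p = 0.0161). Cdkn1b, the inhibitor p27 of cyclin-Cdk2 complexes, gave 23.1, 24.5 and 19.7 CPM in GFP and 17.3, 16.7 and 18.0 in Tomato libraries, and rose by 0.37 ± 0.11 (adjusted p = 0.0366). For both, all GFP libraries lay above all Tomato libraries. With library size scaling Cdkn2b, Cdkn1b and Smc3 did not pass (adjusted p = 0.107, 0.203 and 0.222), and each also lost its call without some single libraries, among them Tomato replicate 2 for all 3. Cdkn3, a phosphatase that acts on Cdk1 and Cdk2 and is itself made in cycling cells, gave 3.69, 5.49 and 5.27 CPM in GFP and 6.58, 7.82 and 11.9 in Tomato libraries, and fell by 0.86 ± 0.25 (adjusted p = 0.0327). Cdkn1a, the p53-inducible inhibitor p21, gave 124, 126 and 144 CPM in GFP and 146, 148 and 185 in Tomato libraries. It did not pass (-0.28, adjusted p = 0.106) except with the replicate block (adjusted p = 0.0221) or library size scaling (0.0370). Cdkn1c, the inhibitor p57, gave 47.5, 58.1 and 39.4 CPM in GFP and 41.7, 39.8 and 28.6 in Tomato libraries and did not pass (0.40, adjusted p = 0.129) except with the block (adjusted p = 0.00985). Cdkn2a was under 1 CPM in every library, at 0.377 to 0.958 in GFP and 0.515 to 0.679 in Tomato, and did not pass.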

How the data were processed

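RNA sequencing libraries of 3 GFP and 3 Tomato fractions were used, grouped by their labels. Per the submitters' processing notes, reads were trimmed with Trim Galore 0.4.3 and aligned with STAR 2.5.2b to GRCm38. The authors deposited raw counts per gene, read per the file headers in an unstranded column and a column for each strand. The unstranded column was used, which sets aside reads that overlap 2 genes on either strand. This can lower the counts of genes with a neighbour on the other strand. For 9 of the 56 genes more than 10% of the reads over their exons were set aside. That share was taken of the summed counts in both strand columns, which can also hold reads of the neighbour. Of 49671 gene identifiers, 49326 matched GENCODE M21, which gave symbols and exon lengths.

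Counts were tested with edgeR 4.0.16 in R 4.3.3 (filterByExpr, TMM scaling, robust quasi-likelihood test of group, two-sided, Benjamini-Hochberg over 15608 genes, threshold 0.05), and the fit was tested on simulated data. CPM values are scaled by TMM. Alternatives used DESeq2 1.42.0, limma-voom 3.58.1, other scalings and filters, one strand column, protein-coding genes alone, no robust estimation, splines of length and GC content with 4 degrees of freedom as offsets, the replicate number as a block, each library left out, and a threshold of 0.01. Deviations of same-numbered libraries from their group means correlated at 0.403, 0.108 and 0.347, and those of unlike numbers at -0.392 to 0.0281, so same-numbered libraries were treated as pairs in the block, a pairing that the labels do not state.

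The genes and lists were chosen with earlier results of these data known. Values in every library are given for the G1 genes, the transcription factors, Mki67, Top2a, Pcna, Cdk1 and the 4 lower genes of smallest adjusted p among replication and among mitosis genes. Of the other cell cycle genes, selected inhibitors and retinoblastoma genes and the 2 with smallest adjusted p in each direction of each list are named, and Cenpe, Cenpf, Rrm1 and Rrm2 were added after their values were seen.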

Additional observations from a re-analysis of the deposited data

How the results depend on the processing

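Lower cell cycle genes numbered 22, and 35 with library size scaling, 36 with the replicate block, 35 with the block and length and GC offsets, 3 at a threshold of 0.01, and 5 to 27 without single libraries. The 1 higher gene became 0 with library size scaling, with offsets, with offsets and the block, and at 0.01, and 0 to 2 without single libraries. Of the 140 other genes, 35 were lower, and 66, 61, 57 and 5 were lower with library size scaling, the block, the block and offsets, and a threshold of 0.01, with 9 to 38 without single libraries. In the same order 0, 5, 5 and 0 were higher in place of 3, with 0 to 4 without single libraries. Library size scaling moved the median log2 fold change to -0.28 for G1 genes, -0.20 for transcription factors, -0.52 for replication genes and -0.55 for mitosis genes. It also moved the difference in the per-library level, the median over genes of log2(CPM + 0.5) from each gene's mean. That difference went from -0.16 to -0.33 for G1 genes and from 0.01 to -0.14 for transcription factors. For replication genes it went from -0.37 to -0.53, and for mitosis genes from -0.40 to -0.56. These shifts, the change of sign of a value near 0 included, match the shift of all genes, whose median moved from 0.00 to -0.16. The other scalings, filters and tools gave 20 to 24 lower cell cycle genes. Beside the calls given with the results, the block changed no call of a named gene. The cause of these differences was not tested. With 3 libraries a group and as few as 51 counts for a gene in a library, small differences in scarce genes could not be resolved, and a p that misses the threshold does not show equal levels.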
